A study of Mus musculus with 10 samples.

Results

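The 8 genes described here encode the core of AP-1, a family of dimeric transcription factors. They are 4 FOS genes (Fos, Fosb, Fosl1 and Fosl2), 3 JUN genes (Jun, Junb and Jund) and Atf3, taken by symbol from a table of 25239 genes, and all 8 had enough counts to be tested. RNA was measured in 2 sorted populations of cells from mouse calvarial sutures, the fibrous joints of the skull vault, at postnatal day 7. DDR2-plus cells, 5 libraries, carry the name of DDR2, a receptor tyrosine kinase that binds fibrillar collagen. PSC cells, an abbreviation that the labels leave unexpanded, also had 5 libraries. Both populations are labelled WT in genotype and as calvarial stem cells, and the protocol names Ctsk-Cre mice, in which the promoter of cathepsin K drives Cre, for all libraries. Whether the animals carried the Cre, and which of the 5 animals gave which library, is not given in the sources used here, so the p-values measure the spread between libraries, which may be technical.

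AP-1 proteins bind DNA as pairs held together by a leucine zipper. FOS proteins must pair with a JUN protein, whereas JUN proteins and ATF3 can also pair with themselves. Most of these genes are immediate early genes, transcribed within minutes of growth factor, mechanical or stress signals through MAP kinases, SRF and CREB, and their mRNAs are then degraded quickly. In the skeleton, mice without Fos lack osteoclasts, excess Fos gives bone and cartilage tumours, and excess Fosl1 or a short form of Fosb gives dense bone. The same genes are also known to be induced while tissue is taken apart into single cells.

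The promoters are shown for the 5 genes that hold a CREB-type or AP-1-type motif in the RefSeq window of 300 bases, which runs from 250 bases before the start site to 50 bases after it. Each line gives the 150 bases before the RefSeq start site on GRCm38.p6, 5′ to 3′ on the strand of the gene, and capitals mark the motif. The windows are chr12:85473740-85473889 on the plus strand for Fos, chr7:19310046-19310195 on the minus strand for Fosb, chr8:84978749-84978898 on the minus strand for Junb, chr1:191183334-191183483 on the minus strand for Atf3 and chr4:95052223-95052372 on the minus strand for Jun.
Fos: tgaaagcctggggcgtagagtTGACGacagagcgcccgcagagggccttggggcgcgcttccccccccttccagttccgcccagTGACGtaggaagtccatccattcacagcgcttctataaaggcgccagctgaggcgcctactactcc
Fosb: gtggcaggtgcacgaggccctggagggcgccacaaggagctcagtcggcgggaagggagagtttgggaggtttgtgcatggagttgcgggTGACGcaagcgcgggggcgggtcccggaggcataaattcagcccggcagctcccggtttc
Junb: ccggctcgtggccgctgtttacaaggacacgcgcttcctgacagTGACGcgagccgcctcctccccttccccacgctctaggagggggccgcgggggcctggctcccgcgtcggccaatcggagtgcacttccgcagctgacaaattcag
Atf3: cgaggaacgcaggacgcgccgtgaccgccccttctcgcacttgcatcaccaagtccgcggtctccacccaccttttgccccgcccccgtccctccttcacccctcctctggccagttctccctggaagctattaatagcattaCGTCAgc
Jun: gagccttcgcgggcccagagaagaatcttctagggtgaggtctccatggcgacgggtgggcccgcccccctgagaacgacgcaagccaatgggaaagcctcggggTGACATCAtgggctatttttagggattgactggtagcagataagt

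The half-site of the CREB motif, TGACG on either strand, was in the promoters of 4 of the 7 AP-1 genes with a RefSeq entry (Fos, Fosb, Junb and Atf3), and in 20.8% of 32851 RefSeq promoters of the same length. Fos held it at -129 and -66, Fosb at -60, Junb at -106 and Atf3 at -7 on the opposite strand, counted back from the start site. TGACATCA, the letters of the AP-1-type site described in the Jun promoter, stood at -45 in Jun, and 3.62% of all promoters held it on either strand. The whole CREB motif TGACGTCA, which contains the half-site, was in 0 of 7, against 1.79% of all promoters. TGAGTCA, the usual AP-1 motif, was in 0 of 7, against 5.20% of all promoters, and the CArG box bound by SRF was in 0 of 7, against 1.63%. A match is only a run of letters in this window, and Fosl1 was not searched. Sites more than 250 bases before the start were not searched, so 0 of 7 does not mean that a gene lacks the motif. The RefSeq starts of Jund (70697739), Atf3 (191183333) and Fosl2 (32136472) are not those of the gene models used for levels (70698949, 191218039 and 32135801). Those of Fosb (19310045 against 19310051) and Junb (84978748 against 84978718) lie closer together.

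Most AP-1 genes were higher in DDR2-plus, by very different amounts. Of the 8, 7 were higher in DDR2-plus past an adjusted p of 0.05 in edgeR's quasi-likelihood test, where 20.1% of the 15416 genes tested were higher. None of the 8 was lower, where 19% of all genes were: all 8 fold changes were above 1, and Jund alone did not pass. With library size as the only scaling, the calls split into 5421 higher and 1538 lower genes, against 3096 and 2926 here, and all 8 AP-1 genes were higher. At least 2-fold higher were 5 of the 8, Fosb, Fosl1, Fosl2, Junb and Atf3, against 9.94% of all genes. In 7 of the 8 the lowest DDR2-plus library stood above the highest PSC library, which held for 15.6% of all genes. The median log2 fold change was 1.17 over the 8 genes and 0.04 over all genes. In bulk RNA, more cells with these transcripts and more transcript per cell cannot be told apart.

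**Figure D1:**
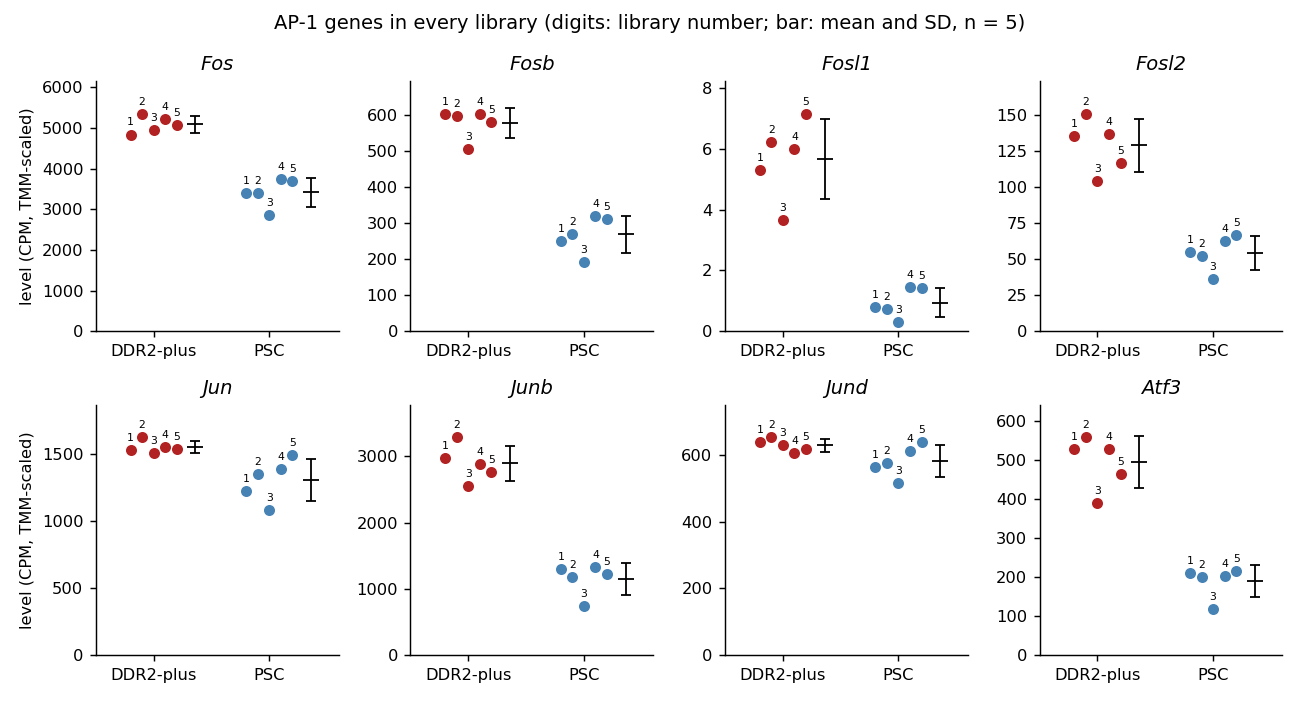
Level of each AP-1 gene (CPM, counts after scaling of the libraries by TMM) in the 5 DDR2-plus libraries (red, left) and the 5 PSC libraries (blue, right); digits are library numbers and bars give mean and SD. DDR2-plus lies wholly above PSC for every gene but Jund, and PSC 3 is the lowest PSC library in all 8 panels.

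Fos, the founding member and the partner that lends JUN dimers stability, lies at chromosome 12, 85473890 to 85477273, on the plus strand (GRCm38, with 4 merged exons). Its level was 4838, 5351, 4945, 5218 and 5072 CPM in DDR2-plus 1 to 5, against 3388, 3406, 2850.1, 3747 and 3689 CPM in PSC 1 to 5. The populations did not overlap, and the means were 5085 ± 206 CPM in DDR2-plus cells and 3416 ± 356 CPM in PSC cells (SD, n = 5 each). The fold change was 1.49 (95% interval 1.33 to 1.67; log2 0.57, SE 0.0759; edgeR adjusted p = 7.21e-05).

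Fosb, whose mRNA also yields the short form that lacks the activation domain, lies at chromosome 7, 19302696 to 19310051, on the minus strand, with 2 merged exons. It was measured at 603, 596, 504, 601 and 579 CPM in the DDR2-plus libraries, against 250.3, 270.0, 192, 319 and 311 CPM in the PSC libraries. Every DDR2-plus library was above 500 CPM and every PSC library below 320 CPM, with means of 576 ± 41.5 CPM in DDR2-plus cells and 268 ± 51.5 CPM in PSC cells (SD, n = 5 each). Fosb was 2.15-fold higher in DDR2-plus (95% interval 1.79 to 2.58; log2 1.10, SE 0.122; edgeR adjusted p = 1.80e-05). Gene counts do not separate the full-length and short forms.

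Fosl2 encodes FRA-2, which has a part in the differentiation of osteoblasts and chondrocytes in mice, and lies at chromosome 5, 32135801 to 32157842, on the plus strand. Its levels were 135, 151, 104, 136 and 117 CPM in DDR2-plus, against 55.0, 52.0, 36.1, 62.2 and 66.3 CPM in PSC. The lowest DDR2-plus library had 1.57 times the level of the highest PSC library. The means were 129 ± 18.3 CPM in DDR2-plus cells and 54.3 ± 11.7 CPM in PSC cells (SD, n = 5 each), a 2.37-fold difference (95% interval 1.89 to 2.97; log2 1.24, SE 0.151; edgeR adjusted p = 3.79e-05).

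Fosl1 encodes FRA-1, which lacks the activation domain of FOS and is needed for normal bone matrix in mice, and lies at chromosome 19, 5447547 to 5455946, on the plus strand. It was the scarcest of the 8, with 299, 356, 223, 409 and 410 counts in DDR2-plus 1 to 5, against 42, 33, 13, 63 and 57 counts in PSC 1 to 5. Scaled, these were 5.30, 6.22, 3.65, 5.99 and 7.15 CPM in DDR2-plus and 0.791, 0.743, 0.301, 1.44 and 1.42 CPM in PSC. The populations were far apart, and the relative spread within each was the widest of the 8 genes, with a coefficient of variation of 23.1% in DDR2-plus and 51.9% in PSC. The fold change of 6.02 was the largest of the 8 and the least precise (95% interval 3.19 to 11.4; log2 2.59, SE 0.422; edgeR adjusted p = 0.000366). Of its exon bases, 57.2% are shared with Ccdc85b, and without strand reads from the 2 genes cannot be told apart there. Ccdc85b stood at 35.1 ± 3.66 CPM in DDR2-plus cells and 21.9 ± 3.18 CPM in PSC cells (SD, n = 5 each), a 1.61-fold difference (edgeR adjusted p = 0.000565), and its part in the Fosl1 counts was not tested.

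Among the JUN genes the difference was graded, large for Junb, small for Jun and not past the threshold for Jund. Junb, a weaker activator than Jun that takes part in the growth of osteoblasts and chondrocytes in mice, lies at chromosome 8, 84974484 to 84978718, on the minus strand. Its level was 2974, 3289, 2561, 2889.8 and 2760.0 CPM in DDR2-plus 1 to 5, against 1294, 1171, 739, 1331 and 1220.4 CPM in PSC 1 to 5. The lowest DDR2-plus library had 1.92 times the level of the highest PSC library, and the means were 2895 ± 269.9 CPM in DDR2-plus cells and 1151 ± 239 CPM in PSC cells (SD, n = 5 each). Junb was 2.51-fold higher in DDR2-plus (95% interval 2.04 to 3.10; log2 1.33, SE 0.139; edgeR adjusted p = 1.12e-05). It shares 7.52% of its exon bases with Prdx2, which was not higher in DDR2-plus, at 155 ± 13.5 CPM there against 179 ± 11.5 CPM in PSC cells (SD, n = 5 each; log2 -0.21; edgeR adjusted p = 0.046).

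Jun, the strongest activator of the JUN proteins and the main target of the JNK kinases, is a single-exon gene at chromosome 4, 95049034 to 95052222, on the minus strand. It had 1532, 1627, 1509, 1553 and 1542 CPM in DDR2-plus, against 1226, 1350.4, 1085, 1394 and 1492 CPM in PSC. The populations did not overlap but nearly touched, since the lowest DDR2-plus library had 1.01 times the level of the highest PSC library. The means were 1553 ± 44.7 CPM in DDR2-plus cells and 1309.6 ± 158 CPM in PSC cells (SD, n = 5 each), a 1.19-fold difference (95% interval 1.05 to 1.34; log2 0.25, SE 0.0811; edgeR adjusted p = 0.0293). The call is fragile. The edgeR adjusted p was 0.0501, 0.0777, 0.061 and 0.0558 without DDR2-plus 1, 2, 4 or 5, and 0.0676 without PSC 1, with log2 fold changes of 0.22 to 0.25. Of its exon bases, 7.28% are shared with Junos, annotated on the same stretch.

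Jund, the most steadily expressed and least inducible of the JUN genes, is a single-exon gene in the annotation, at chromosome 8, 70698949 to 70700616, on the plus strand. Its level was 639, 654, 630.4, 606 and 618 CPM in DDR2-plus, against 566, 577, 518, 613 and 640.4 CPM in PSC. The populations overlapped, with PSC 5 above 4 of the 5 DDR2-plus libraries. The means were 629 ± 18.3 CPM in DDR2-plus cells and 583 ± 46.9 CPM in PSC cells (SD, n = 5 each; log2 0.11, SE 0.0664, 95% interval -0.03 to 0.25; edgeR adjusted p = 0.212). The interval leaves room for a rise of up to 1.19-fold. Scaled by library size alone, Jund was higher at a log2 fold change of 0.38 (edgeR adjusted p = 0.000642), but that scaling moved the median of all genes to 0.31, and Jund stood 0.07 above the median under both scalings. Of its exon bases, 52.6% are shared with the gene model Gm11175.

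Atf3, a stress-induced member that represses as a homodimer and can activate beside JUN, lies at chromosome 1, 191170296 to 191218039, on the minus strand, with 5 merged exons. Its level was 529, 558, 391, 528 and 465 CPM in DDR2-plus 1 to 5, against 211, 199, 118, 202 and 216 CPM in PSC 1 to 5. Every DDR2-plus library had at least 1.81 times the level of the highest PSC library. The means were 494 ± 67.0 CPM in DDR2-plus cells and 189 ± 40.2 CPM in PSC cells (SD, n = 5 each), a 2.61-fold difference (95% interval 2.07 to 3.29; log2 1.38, SE 0.154; edgeR adjusted p = 1.80e-05).

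**Figure D2:**
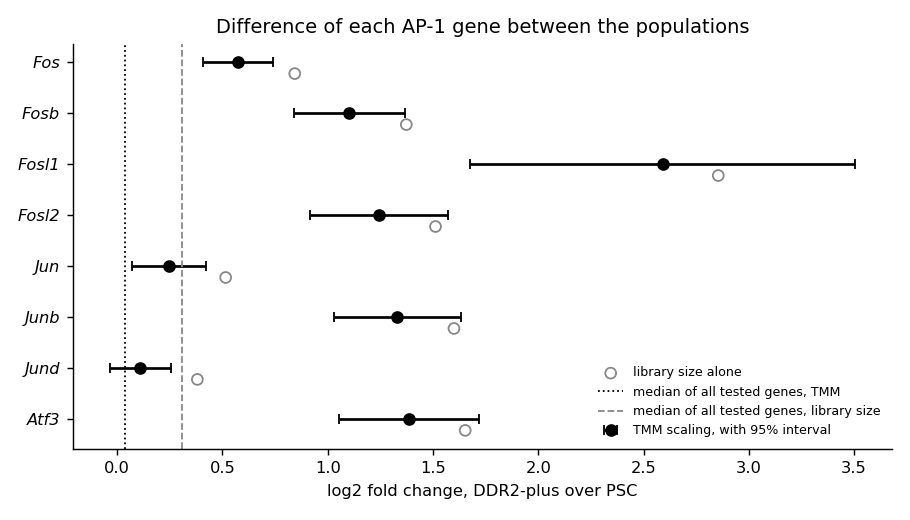
log2 fold change of each AP-1 gene, DDR2-plus over PSC (filled points, TMM scaling, with 95% interval; open circles, library size alone; vertical lines, median of all tested genes under each scaling). Fosl1 lies farthest right at 2.59, while the interval of Jund (log2 0.11) spans 0 and that of Jun (log2 0.25) ends near it.

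Set against each other per length of exon sequence, the 8 genes had the same order of mean level in both populations. Fos led, at 2162 ± 87.4 CPM per kb in DDR2-plus and 1452 ± 151 CPM per kb in PSC. Junb followed, at 1258 ± 117 in DDR2-plus and 500.3 ± 104 in PSC, then Jun at 487 ± 14.0 in DDR2-plus and 411 ± 49.4 in PSC (all SD, n = 5 each). Jund came next in the mean with 377 ± 10.9 CPM per kb in DDR2-plus and 349 ± 28.1 CPM per kb in PSC, and then Atf3 with 229 ± 31.1 in DDR2-plus and 87.8 ± 18.6 in PSC. Fosb averaged 92.3 in DDR2-plus and 43.0 in PSC, Fosl2 averaged 13.3 in DDR2-plus and 5.61 in PSC, and Fosl1 averaged 2.78 in DDR2-plus and 0.462 in PSC, in the same unit. Neighbours kept this order in all 5 libraries of each population except Junb over Jun, which held in 4 of the 5 PSC libraries. In PSC the ranges over libraries overlapped for Junb (321 to 579 CPM per kb) and Jun (340.4 to 468), and for Jun and Jund (310.4 to 384). The place of Jund depends on its gene model: over the 2878 bases of its RefSeq span, in place of the 1668 bases used here, it would average 219 CPM per kb in DDR2-plus, below Atf3, and 203 CPM per kb in PSC.

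The make-up of the AP-1 transcripts differed between the populations. Summed over the 8 genes, the level was 11366 ± 581 CPM in DDR2-plus cells and 6973 ± 864 CPM in PSC cells (SD, n = 5 each), with ranges of 10648 to 12231 CPM in DDR2-plus and 5539 to 7670.2 CPM in PSC. Junb made up 27.2 ± 1.28% of the per-length sum in DDR2-plus and 17.4 ± 2.06% in PSC, while Jun made up 10.5 ± 0.251% in DDR2-plus and 14.4 ± 0.721% in PSC, and Jund 8.18 ± 0.382% in DDR2-plus and 12.3 ± 0.778% in PSC. Over the longer RefSeq span, the share of Jund would be 4.91 ± 0.238% in DDR2-plus and 7.54 ± 0.503% in PSC (SD, n = 5 each). Atf3 held 4.95 ± 0.488% in DDR2-plus and 3.05 ± 0.385% in PSC. The FOS genes together were 49.2 ± 1.35% in DDR2-plus and 52.8 ± 1.20% in PSC, and the JUN genes 45.9 ± 1.01% in DDR2-plus and 44.2 ± 0.816% in PSC. These shares were chosen with the fold changes known and carry no test.

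**Figure D3:**
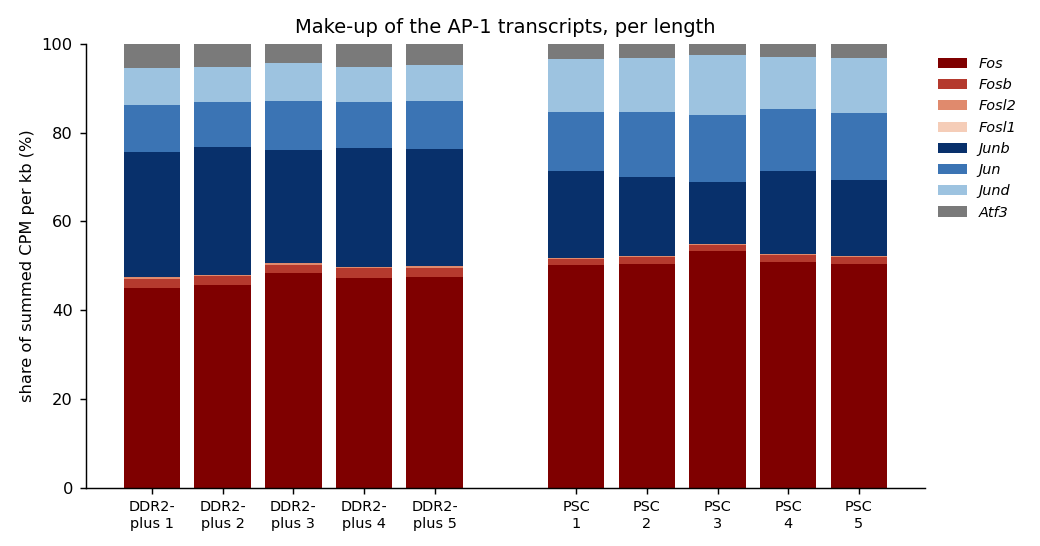
Share of each AP-1 gene (%) in the summed per-length level (CPM per kb) of the 8 genes, one stacked bar per library, DDR2-plus on the left and PSC on the right. The Junb block spans 25.6% to 28.7% in DDR2-plus and 14.1% to 19.6% in PSC, and the Jun and Jund blocks are thinner in DDR2-plus.

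Ratios within a library, in CPM, showed the same shift free of any scaling between libraries. Junb over Jun was 1.70 to 2.02 in DDR2-plus and 0.681 to 1.06 in PSC, so that Junb counts outnumbered Jun counts in every DDR2-plus library and in 1 of the 5 PSC libraries. Junb over Jund was 4.06 to 5.03 in DDR2-plus and 1.43 to 2.29 in PSC. Fosb over Fos was 0.102 to 0.125 in DDR2-plus and 0.0672 to 0.0850 in PSC, and Fosl2 over Fos was 0.0211 to 0.0282 in DDR2-plus and 0.0126 to 0.0180 in PSC. Fos over Jun was 3.16 to 3.36 in DDR2-plus and 2.47 to 2.76 in PSC. None of these 5 ratios overlapped between the populations. They too were chosen with the fold changes known, restate their inequality and carry no test. How often the ratios of other gene pairs part in this way was not counted. A ratio shows unequal change and not which gene changed.

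Within each population, library 3 had the lowest level of most AP-1 genes. DDR2-plus 3 was the lowest DDR2-plus library for 6 of the 8 genes, the exceptions being Fos, lowest in DDR2-plus 1, and Jund, lowest in DDR2-plus 4. PSC 3 was the lowest PSC library for all 8. Both carry the number 3 in their titles, and whether a shared number means a shared source is not given. Over all genes tested, DDR2-plus 3 was the lowest of its population for 23.8% and PSC 3 for 17.9%. Of 23 other immediate early genes tested, 18 were lowest in DDR2-plus 3 and 23 in PSC 3, and of 12 heat shock genes, 9 were lowest in DDR2-plus 3 and 12 in PSC 3. With both of these libraries left out, an alternative added once the values had been seen, the same 7 AP-1 genes were higher.

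**Figure D4:**
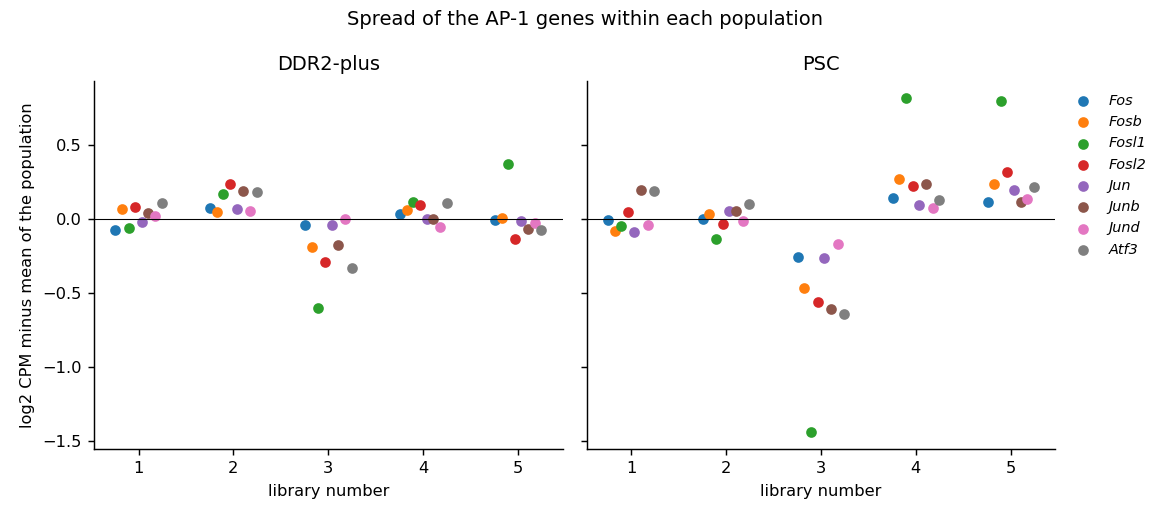
Deviation of each AP-1 gene (log2 CPM minus the mean of its population) in libraries 1 to 5, DDR2-plus in the left panel and PSC in the right. Most points of library 3 lie below 0 in both panels, with Fosl1 the farthest down in each.

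Of 17 tested relatives with the same basic leucine zipper fold, 6 were higher, 4 lower and 7 did not pass. Over all genes, 20.1% were higher and 19% lower. The median log2 fold change of the 17 relatives was 0.37. The largest gain among the named ones was in Mafk, a small MAF protein with no activation domain, at 145 ± 19.5 CPM in DDR2-plus cells and 43.8 ± 12.0 CPM in PSC cells (3.30-fold; edgeR adjusted p = 1.01e-05). Nfe2l1, a regulator of proteasome genes, was 1.58-fold higher, at 237 ± 23.8 CPM in DDR2-plus cells and 150.2 ± 13.4 CPM in PSC cells (SD, n = 5 each; edgeR adjusted p = 7.28e-05). Jdp2, which pairs with JUN and represses AP-1 sites, moved the other way and was 1.99-fold lower, at 26.7 ± 5.96 CPM in DDR2-plus cells and 53.3 ± 12.9 CPM in PSC cells (edgeR adjusted p = 0.00111). Creb5, a partner of JUN, was 3.33-fold lower, at 6.53 ± 2.32 CPM in DDR2-plus cells and 21.7 ± 7.17 CPM in PSC cells (edgeR adjusted p = 0.000275). Nfe2l2, the antioxidant response factor, and the repressor Bach2 were the other 2 lower genes. Atf4, the factor of the integrated stress response, had 259 ± 12.5 CPM in DDR2-plus cells and 233 ± 8.22 CPM in PSC cells (SD, n = 5 each; edgeR adjusted p = 0.0547), and was called higher under 6 of 18 alternatives, including that without PSC 5 (adjusted p = 0.0444). Batf2 and Nrl had 0 counts in PSC and were not tested.

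The kinases and factors that act upstream of AP-1 genes showed no such rise at the RNA level. Of 25 tested, 3 were higher, 4 lower and 18 did not pass, where 20.1% of all genes were higher and 19% lower. The median log2 fold change of the 25 was -0.03. Higher were Rps6ka5 (MSK1, a kinase of CREB and histone H3), at 16.4 ± 4.70 CPM in DDR2-plus cells and 7.25 ± 0.787 CPM in PSC cells (2.26-fold; edgeR adjusted p = 0.000574), and Srf, which binds the CArG box, at 44.4 ± 5.66 CPM in DDR2-plus cells and 25.6 ± 5.77 CPM in PSC cells (1.73-fold; edgeR adjusted p = 0.00101). Mapk10, the JNK of neurons, was the third. Lower were the ERK pathway kinases Map2k1 and Map2k2, the ribosomal S6 kinase Rps6ka3 and the SRF partner Mrtfa. Rps6ka3 stood at 10.1 ± 0.648 CPM in DDR2-plus cells and 18.9 ± 4.05 CPM in PSC cells (1.87-fold lower; edgeR adjusted p = 0.00049). Map2k2 stood at 94.7 ± 8.34 CPM in DDR2-plus cells and 127 ± 3.83 CPM in PSC cells (SD, n = 5 each; 1.34-fold lower; edgeR adjusted p = 0.000429), a call lost with library size alone (adjusted p = 0.105). These kinases act by phosphorylation, which RNA does not measure.

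Most genes of a list drawn up for AP-1 shut-off did not pass the test, which also held over all genes, where 6022 of 15416 passed. The list includes Elavl1, which stabilises immediate early mRNAs and did not pass (edgeR adjusted p = 0.0517). Of 17 tested, 5 were higher, 1 lower and 11 did not pass, where 20.1% of all genes were higher and 19% lower. DESeq2 and limma-voom each called 7 of them higher and 1 lower. The median log2 fold change of the 17 was 0.23, whereas with library size alone 12 of them were called. Zfp36 (tristetraprolin), which binds the AU-rich tails of immediate early mRNAs and speeds their decay, had 1554 ± 115 CPM in DDR2-plus cells and 553 ± 91.9 CPM in PSC cells (2.81-fold; edgeR adjusted p = 1.17e-06). Dusp5, a phosphatase of nuclear ERK, had 151 ± 29.8 CPM in DDR2-plus cells and 30.9 ± 9.28 CPM in PSC cells (4.88-fold; edgeR adjusted p = 7.45e-06). The phosphatase Dusp1, the RNA-binding Zfp36l2 and Itch, a ubiquitin ligase of JUN proteins, were the other 3 higher genes, each by less than 1.4-fold. Dusp6, the phosphatase of cytoplasmic ERK, was lower, at 39.1 ± 7.38 CPM in DDR2-plus cells and 58.5 ± 10.7 CPM in PSC cells (SD, n = 5 each; edgeR adjusted p = 0.00807), a call lost with library size alone (adjusted p = 0.118). Zfp36l1 stood at 152 ± 7.003 CPM in DDR2-plus cells and 136 ± 19.3 CPM in PSC cells (SD, n = 5 each; edgeR adjusted p = 0.192), and passed as higher without PSC 5 (adjusted p = 0.0312).

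**Figure D5:**
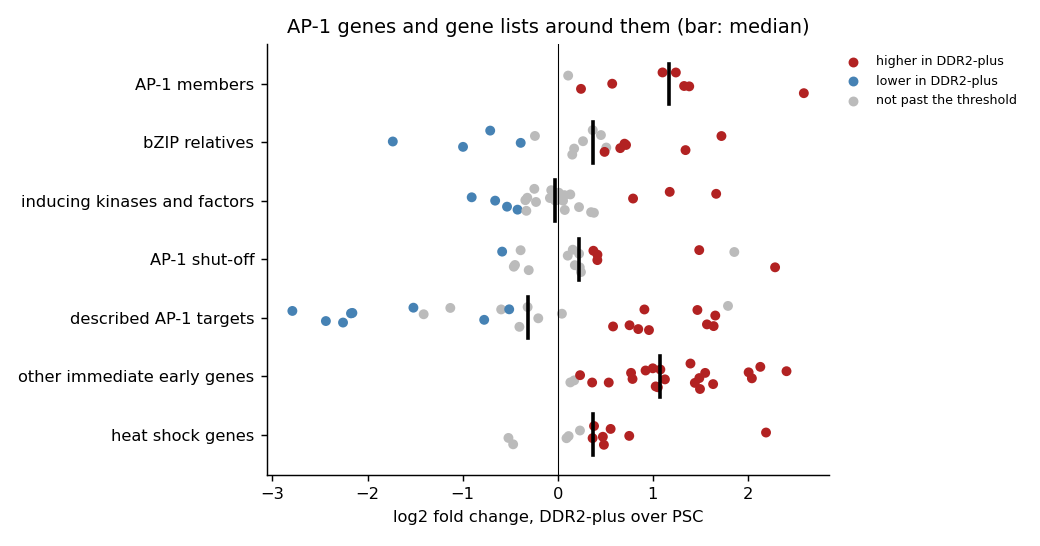
log2 fold change, DDR2-plus over PSC, of the AP-1 genes and of 6 lists around them, 1 point per tested gene, coloured by the edgeR call, with the median as a bar. The AP-1 genes (median 1.17) and other immediate early genes (median 1.08) lie mostly to the right, whereas the described targets (median -0.32) spread to both sides.

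Genes described elsewhere as AP-1 targets did not follow the AP-1 genes as a group. Of 25 tested, 9 were higher, 8 lower and 8 did not pass, where 20.1% of all genes were higher and 19% lower. The median log2 fold change of the 25 was -0.32. Mgp, an inhibitor of cartilage and artery mineralization, had 3809 ± 182 CPM in DDR2-plus cells and 1221 ± 270.0 CPM in PSC cells (3.12-fold; edgeR adjusted p = 2.29e-06), and the metallothionein Mt1 had 106 ± 4.02 CPM in DDR2-plus cells and 56.3 ± 7.21 CPM in PSC cells (1.88-fold; edgeR adjusted p = 5.81e-06). The 2 lower genes with the smallest p encode bone matrix proteins. Col1a2, a chain of type I collagen, had 25321 ± 6339 CPM in DDR2-plus cells and 113106 ± 3635 CPM in PSC cells (SD, n = 5 each; 4.47-fold lower; edgeR adjusted p = 5.20e-07). Spp1, the bone matrix protein osteopontin, had 4097 ± 1031 CPM in DDR2-plus cells and 22202 ± 4045 CPM in PSC cells (5.42-fold lower; edgeR adjusted p = 8.04e-07). Mmp13, the collagenase of hypertrophic cartilage and a textbook AP-1 target, had 1035 ± 199 CPM in DDR2-plus cells and 1368 ± 284 CPM in PSC cells (SD, n = 5 each; log2 -0.40; edgeR adjusted p = 0.0521). Under 8 of 18 alternatives it was called lower, including those without DDR2-plus 3 (adjusted p = 0.0109), PSC 4 (0.0338) or PSC 5 (0.0346).

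Other immediate early genes were higher as well. Of 23 tested, 21 were higher, 0 lower and 2 did not pass, where 20.1% of all genes were higher and 19% lower. The median log2 fold change of the 23 was 1.08, and every fold change was above 1. Btg2, an inhibitor of proliferation, had 2204 ± 292 CPM in DDR2-plus cells and 548 ± 137 CPM in PSC cells (4.03-fold; edgeR adjusted p = 2.52e-06). Ccn1, a matricellular protein, had 3488 ± 518 CPM in DDR2-plus cells and 1324 ± 215 CPM in PSC cells (2.63-fold; edgeR adjusted p = 4.64e-06). Egr3 and Klf4 were the 2 that did not pass. Klf4 had 195 ± 11.9 CPM in DDR2-plus cells and 173 ± 18.7 CPM in PSC cells (SD, n = 5 each; edgeR adjusted p = 0.11), and passed as higher without PSC 5 (adjusted p = 0.0356).

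Of 12 heat shock and chaperone genes tested, 7 were higher, 0 lower and 5 did not pass. Over all genes, 20.1% were higher and 19% lower. The median log2 fold change of the 12 was 0.38. The count of lower ones in edgeR was 0 at an unadjusted p under 0.05 as well, and 0 by DESeq2 and by limma-voom, as it was for the AP-1 and other immediate early genes. Dnajb1, a co-chaperone of HSP70, led with 1285 ± 182 CPM in DDR2-plus cells and 281 ± 71.7 CPM in PSC cells (4.57-fold; edgeR adjusted p = 1.62e-06), and the small chaperone Hspb1 had 32.1 ± 5.52 CPM in DDR2-plus cells and 19.1 ± 2.47 CPM in PSC cells (1.69-fold; edgeR adjusted p = 0.000691). The inducible HSP70 gene Hspa1b did not pass, at 156 ± 54.2 CPM in DDR2-plus cells and 223 ± 90.0 CPM in PSC cells (SD, n = 5 each; log2 -0.52; edgeR adjusted p = 0.228), and it passed as lower without PSC 3 (adjusted p = 0.0298) and without both libraries numbered 3 (0.0297). Its near-identical neighbour Hspa1a can share its reads, and Hspa1a, Hsph1, Hspe1 and Hspd1 did not pass either. Summed over the list, heat shock genes reached 3152 to 4314 CPM in DDR2-plus cells and 1702 to 2692 CPM in PSC cells. Dnajb1 alone gave 984 to 1438 CPM of that sum in DDR2-plus cells and 170 to 364 CPM in PSC cells. The sum therefore does not describe the list gene by gene. That sum includes Hspa5, a chaperone of the endoplasmic reticulum and 1 of the 7 higher genes. Hspa5 had 1072 to 1415 CPM in DDR2-plus cells and 770 to 990 CPM in PSC cells. Other immediate early genes summed to 15296 to 20165 CPM in DDR2-plus cells and 5773 to 9209 CPM in PSC cells. The part of handling or dissociation in the AP-1 difference was not tested.

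Measures of the libraries and markers of other cell types are given beside the AP-1 difference, and some of them also part the populations. Total counts overlapped, at 49843470 to 62021992 in DDR2-plus and 43419129 to 58270419 in PSC. Genes with at least 10 counts did not overlap, at 15739 to 16191 in DDR2-plus and 14393 to 14817 in PSC. TMM factors were 1.06 to 1.13 in DDR2-plus and 0.898 to 0.925 in PSC. The ribosomal RNA gene Rn45s was at 3008 to 5009 CPM in DDR2-plus cells and 5969 to 8164 CPM in PSC cells, and the 2 type I collagen genes took 4.56% to 8.24% of counts in DDR2-plus and 21.5% to 23.7% in PSC. Of 14 markers of suture mesenchyme, all detected in both populations, 9 were lower and 2 higher in DDR2-plus. The 14 summed to 41124 to 74588 CPM in DDR2-plus, against 233716 to 262258 CPM in PSC. These sums were mostly Col1a1 and Col1a2, which were 4.74-fold and 4.47-fold lower in DDR2-plus. The other called markers ran from Ctsk, 2.74-fold lower, to Msx2, 3.07-fold higher. Ddr2 mRNA was lower in DDR2-plus, at 107 to 116 CPM in DDR2-plus cells and 134 to 160.3 CPM in PSC cells. All 10 chondrocyte markers were higher in DDR2-plus, with summed levels of 84735 to 117648 CPM against 11776 to 26082 CPM in PSC. Schwann and glial markers (8 of 8 higher, but 5 by limma-voom) summed to 437 to 949 CPM in DDR2-plus cells and 40.7 to 96.2 CPM in PSC cells. Photoreceptor and pineal markers (7 of 8 higher, with Aanat and Cdhr1 at 0 in PSC) summed to 165 to 264 CPM in DDR2-plus and 4.95 to 7.57 CPM in PSC. Asmt, the remaining marker, did not pass (log2 -0.65, edgeR adjusted p = 0.0588) but was lower by DESeq2 and by limma-voom. Neuron markers (6 of 8 higher, 7 by DESeq2 and 5 by limma-voom, with Slc17a6 at 0 in PSC) summed to 62.0 to 176 CPM in DDR2-plus and 30.9 to 47.1 CPM in PSC. The sums of the next 4 lists overlapped between the populations. Leukocyte markers (1 of 5 tested higher, 2 by DESeq2) summed to 16.1 to 32.2 CPM in DDR2-plus cells and 9.26 to 19.7 CPM in PSC cells. Endothelial markers (2 higher and 2 lower of 6, 1 lower by limma-voom) summed to 22.1 to 42.2 CPM in DDR2-plus and 17.9 to 40.9 CPM in PSC. Muscle markers (1 of 6 higher, 2 by limma-voom) summed to 10.1 to 38.6 CPM in DDR2-plus and 6.61 to 27.3 CPM in PSC, and Pax7 had 1 count in DDR2-plus and 0 in PSC. Erythroid markers (2 of 5 higher, 3 by DESeq2, with Klf1 at 0 in PSC) summed to 7.67 to 29.3 CPM in DDR2-plus and 0.398 to 10.6 CPM in PSC. Of 7 osteoclast markers 2 were tested, Mmp9 higher and Acp5 lower, and the sum, mostly Mmp9, was 552 to 859 CPM in DDR2-plus and 146 to 386 CPM in PSC; Dcstamp had 8 counts in DDR2-plus and 0 in PSC. The part of these cell types and of RNA quality in the AP-1 difference was not tested.

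The genes with the most similar patterns were sought by the root-mean-square difference of centred log2 CPM over the 10 libraries, among 9148 genes with a mean of at least 10 CPM. Jun was closest to Klf6 (0.0498) and Klf4 (0.0567), both zinc finger factors of the early response, against a spread of 0.172 in Jun itself. Klf6 was 1.18-fold higher, at 264 ± 15.4 CPM in DDR2-plus cells and 224 ± 23.9 CPM in PSC cells (SD, n = 5 each; edgeR adjusted p = 0.0351), a call lost without DDR2-plus 1, 2, 4 or 5 (adjusted p = 0.0741, 0.0847, 0.0851 and 0.0623) and without PSC 1 (0.0816) or PSC 3 (0.0776). Fos was closest to Pnrc1 (0.0614) and Htra1 (0.0643), against its own spread of 0.309. Fosb lay nearest to Ier2 (0.0956) and Phf13 (0.0971), Fosl2 to Ier5 (0.0954) and Phlda1 (0.0964), and Atf3 to Phlda1 (0.109) and Hk2 (0.111), with spreads of 0.596, 0.680 and 0.751. Junb was nearest to Trp53inp2 (0.0847) and Zfp36 (0.103), with a spread of 0.718. Fosl1 matched less closely and was nearest to Ucma (0.275), a secreted cartilage protein that was 5.42-fold higher, at 328 ± 51.1 CPM in DDR2-plus cells and 60.6 ± 32.8 CPM in PSC cells (SD, n = 5 each; edgeR adjusted p = 0.000122), and to Mia (0.329), another cartilage protein, against a spread of 1.52. Most of each spread is the difference between the populations, which any gene with a like fold change shares.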

How the data were processed

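RNA-seq was analysed for 5 DDR2-plus and 5 PSC libraries. The authors deposited a table of raw counts, 1 value per gene symbol and library, which holds whole numbers throughout. Per the labels' protocols, SMART-Seq v4 cDNA from 1 ng of RNA went into Nextera XT libraries, which keep no strand, sequenced paired-end with 50 cycles. The build mm10 and DESeq come from the submitters' processing notes; the aligner, the counter and the annotation used there are not given in the sources at hand.

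Counts were tested with edgeR 4.0.16 in R 4.3.3 (quasi-likelihood, TMM, filterByExpr, no covariates), fitted on the whole table with Benjamini-Hochberg adjustment over 15416 genes and a threshold of 0.05. Every fold change divides DDR2-plus by PSC, and standard errors follow from the fold change and F statistic. Levels are CPM scaled by TMM factors, and per-length levels are divided by the exon union in GENCODE M21. Alternatives were DESeq2 1.42.0, limma-voom 3.58.1, other scalings and filters, a block on library number and leaving out each library. The test was also run on simulated counts in which 200 genes changed, against 6022 genes called here. That run therefore cannot show how the scaling or the test behaves under a difference as wide as this. No pair of libraries of a population agreed within sampling noise (lowest chi-square per degree of freedom 41.9).

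The members and lists were chosen with earlier results of these data known. Named besides the members are, per list, up to 2 genes per direction with the smallest p among called genes that average 10 CPM or more in the higher population, the most abundant gene not past it (for the kinases and factors it is not reported here), and the 2 nearest genes of each called member. Other genes are named to complete a count of 5 or fewer, after their values were seen. Dusp5, Zfp36l1, Spp1, Mia and Phlda1 share 18.75% to 55.9% of their exon bases with another annotated gene, and their counts are uncertain to that degree.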

Additional observations from a re-analysis of the deposited data

Results flagged for a closer look

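In a few genes 1 library stood far from the other 4 of its population, by the gap to the nearest library against the range of the population. Fosb was lowest in DDR2-plus 3, at 504 CPM against 579 to 603 CPM in the other DDR2-plus libraries. Junb was lowest in PSC 3, at 739 CPM against 1171 to 1331 CPM, and Atf3 was lowest in the same library, at 118 CPM against 199 to 216 CPM. Btg2 was lowest in DDR2-plus 3, at 1696 CPM against 2220.3 to 2386 CPM. Klf4 and Ier2 were highest in DDR2-plus 2, at 215 CPM against 185 to 193 CPM and at 1097 CPM against 995 to 1019 CPM. Spp1 was highest in PSC 1, at 29305 CPM against 19153 to 21220.2 CPM. These are 7 of 88 sets checked (44 genes in 2 populations), where chance gives about 1 in 20.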

How the results depend on the processing

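Under 18 alternative settings no AP-1 gene changed direction, and Fos, Fosb, Fosl1, Fosl2, Junb and Atf3 passed in each. The count of AP-1 genes higher ranged from 6 to 7 when leaving out 1 library, was 8 with library size alone and stayed 7 elsewhere. Leaving out 1 library gave 5176 to 6020 genes called in all (6022 with none left out), 0 AP-1 genes lower, and 9 to 11 of the leucine zipper relatives, 6 to 8 of the kinases and factors, 5 to 7 of the shut-off genes, 16 to 19 of the targets, 20 to 22 of the immediate early genes and 7 to 9 of the heat shock genes called. Library size alone gave 12 shut-off genes called, against 6, and 5421 genes higher and 1538 lower, against 3096 and 2926; this setting drops the TMM factors, and the median of all genes was 0.31 in place of 0.04. DESeq2 called 6598 genes and limma-voom 6437. The libraries share numbers 1 to 5 across populations, but same-numbered libraries did not as a rule deviate together (correlations -0.00323 to 0.212, with 1 of 5, the pair numbered 3, over 0.1 and above every different-numbered pair; 2 of 5 DDR2-plus libraries were closest to their own number). With library number as a replicate block, 5742 genes were called, 7 AP-1 genes were higher and 6 shut-off genes were called; among the named genes the block changed the calls of Mmp13 (adjusted p = 0.0309) and Hspa1b (0.0222), both then past the threshold as lower. Fosl1 rests on 13 to 63 counts per PSC library, which limits its precision; amplified reads are not independent molecules.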
